A study of Glycine max with 12 samples.

Results

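NIN and the NSP proteins are transcription factors that legume roots use in root nodule symbiosis, and 8 soybean (Glycine max) genes for them were followed in roots grown with or without an arbuscular mycorrhizal fungus. The set was given by gene ID and holds 4 NIN genes, 2 NSP1 genes and 2 NSP2 genes, out of 49551 genes with a value above 0 in at least 1 library. All 8 were listed in at least 9 of the 12 libraries. The gene names come from that list, because the tables themselves give IDs alone.

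NSP1 and NSP2 (NODULATION SIGNALING PATHWAY) are GRAS-family proteins. In Medicago truncatula they bind each other and act in the nucleus downstream of the calcium signal that rhizobial signal molecules evoke, and the same pair is needed there for normal synthesis of strigolactones, root-exuded compounds that arbuscular mycorrhizal fungi sense. NIN (NODULE INCEPTION), an RWP-RK protein first described in Lotus japonicus, acts downstream of them and is required for bacterial infection and for the start of a nodule. Early steps of this signalling route, up to the calcium-activated kinase, are shared by rhizobial and mycorrhizal symbiosis in legumes.

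Root total RNA was sequenced in 12 libraries, 3 in each of 4 groups. Ri roots carried Rhizophagus irregularis. Ga-H roots carried Glomus aggregatum with high colonization and Ga-L roots carried the same fungus with low colonization. NM roots, the control, carried no mycorrhizal fungus. The labels name no rhizobium and no nodule for any group, and give neither cultivar nor plant age. Whether each library is a plant or pot of its own is not stated, so p-values speak only to the spread among these 12 libraries, part of which may be technical. RNA from the whole root was measured, so fewer cells of a type and less RNA per cell cannot be told apart.

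The total expected count, an estimated number of fragments per gene, ranged from 10182200 to 11054762 per library. Ri replicate 1 had the lowest mean Pearson correlation with its own group, 0.902, and was more like the Ga-H libraries (0.943). Ri replicate 3 was also slightly more like Ga-H (0.944) than its own group (0.941), while Ri replicate 2 was about as like either (0.923 with Ri and 0.920 with Ga-H). Marker genes of root, shoot and nodule could not be matched to the IDs, so the tissue label was not checked.

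The copies lie in 4 pairs and are named here by gene and chromosome. NSP1-07 is Glyma.07G039400.Wm82.a2.v1 and NSP1-16 is Glyma.16G008200.Wm82.a2.v1. NSP2-04 is Glyma.04G251900.Wm82.a2.v1 and NSP2-06 is Glyma.06G110800.Wm82.a2.v1. NIN-04 is Glyma.04G000600.Wm82.a2.v1 and NIN-06 is Glyma.06G000400.Wm82.a2.v1. NIN-02 is Glyma.02G311000.Wm82.a2.v1 and NIN-14 is Glyma.14G001600.Wm82.a2.v1. The chromosome is the number in the ID of the Wm82.a2.v1 annotation.

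Copies of a pair can share reads. A single copy often had a count that was not whole, for example NSP1-07 in 12 of 12 libraries and NIN-04 in 10 of 12. The counts of the copies of a pair nevertheless added up to a whole number, within 0.01 counts, in 12 of 12 libraries. For NSP1, for NSP2 and for NIN-04 with NIN-06, reads were therefore divided between the copies, and the value of a single copy is less certain than the sum of the pair. NIN-02 and NIN-14 each had a count that was not whole in 1 of 12 libraries, so the whole sums say little about that pair. Pair sums are given beside the single copies for that reason. They were chosen after the values were seen.

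**Figure D1:**
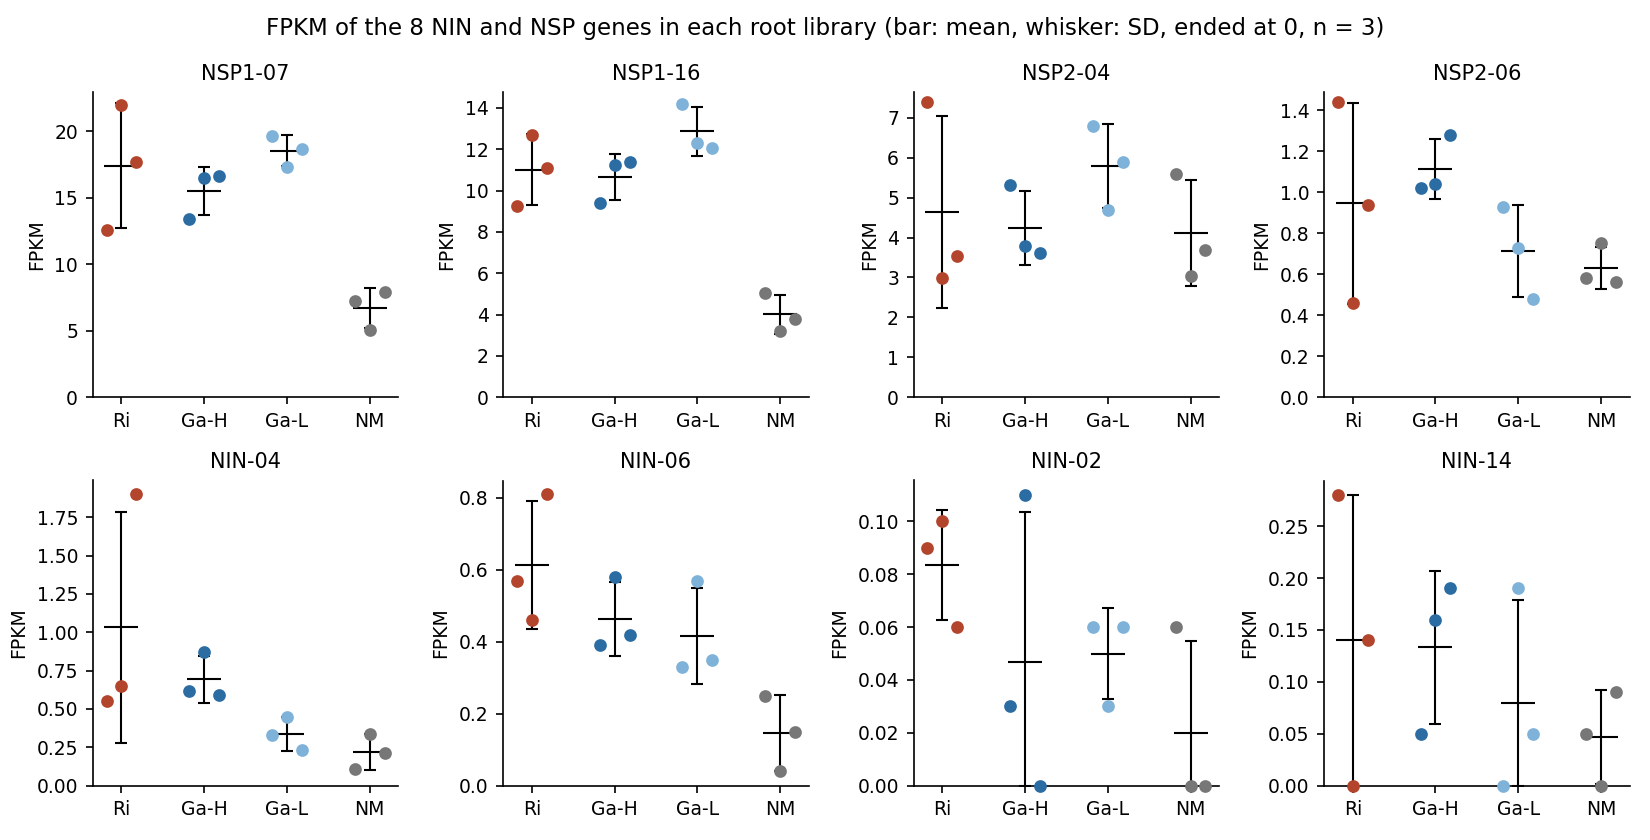
FPKM (fragment counts divided by gene length and by library total) of each of the 8 genes in the 12 libraries, with groups in the order Ri, Ga-H, Ga-L and NM along the x axis; points are libraries and bars are means ± SD (n = 3). The 9 colonized libraries of both NSP1 genes sit above all 3 NM libraries, and NIN-02 and NIN-14 stay near 0 in every group.

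Both NSP1 genes were higher in all 3 colonized groups than in NM roots. On the FPKM scale, which is per length, NSP1-07 had 12.6, 21.96 and 17.72 FPKM in Ri, 13.42, 16.48 and 16.66 in Ga-H, 19.65, 17.31 and 18.65 in Ga-L, and 7.20, 5.06 and 7.88 in NM libraries. Each of the 9 colonized libraries lay above the highest NM library. Group means were 17.4 ± 4.69, 15.5 ± 1.82 and 18.5 ± 1.17 FPKM in Ri, Ga-H and Ga-L, against 6.71 ± 1.47 in NM (SD, n = 3 each). By edgeR's quasi-likelihood test on the counts, the log2 fold change of NSP1-07 against NM was 1.35 in Ri (SE 0.21, Benjamini-Hochberg adjusted p = 0.00138), 1.18 in Ga-H (SE 0.21, adjusted p = 0.00383) and 1.51 in Ga-L (SE 0.21, adjusted p = 0.000504). These correspond to 2.55-fold, 2.27-fold and 2.85-fold higher levels.

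NSP1-16, the other gene for this GRAS protein, showed the same order of groups at a lower level. It had 9.23, 12.67 and 11.1 FPKM in Ri, 9.39, 11.25 and 11.36 in Ga-H, 14.21, 12.3 and 12.07 in Ga-L, and 5.02, 3.2 and 3.8 in NM libraries. Again no colonized library fell within the NM range. The edgeR log2 fold change of NSP1-16 against NM was 1.43 in Ri (SE 0.17, adjusted p = 0.000239), 1.38 in Ga-H (SE 0.17, adjusted p = 0.000315) and 1.73 in Ga-L (SE 0.17, adjusted p = 4.31e-05). Among listed genes ranked by FPKM, the median library placed NSP1-16 at the 72.2nd, 72.9th and 75.9th percentile in Ri, Ga-H and Ga-L, against the 47.6th in NM. NSP1-07 lay at the 82.2nd, 81.2nd and 84.2nd percentile in Ri, Ga-H and Ga-L, against the 63.0th in NM.

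The pair sum, which does not depend on how shared reads were divided, gave the same picture. Counts of NSP1-07 and NSP1-16 together were 582, 908 and 779 in Ri, 586, 748 and 742 in Ga-H, 885, 765 and 799 in Ga-L, and 338, 230 and 316 in NM libraries. Tested as 1 gene by edgeR, the sum had a log2 fold change against NM of 1.38 in Ri (adjusted p = 0.000532), 1.26 in Ga-H (adjusted p = 0.00109) and 1.6 in Ga-L (adjusted p = 0.000139). The 3 comparisons share the NM libraries. Within Ri, replicate 1 was the lowest library for both NSP1 genes, at 12.6 and 9.23 FPKM, and still exceeded every NM library.

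**Figure D2:**
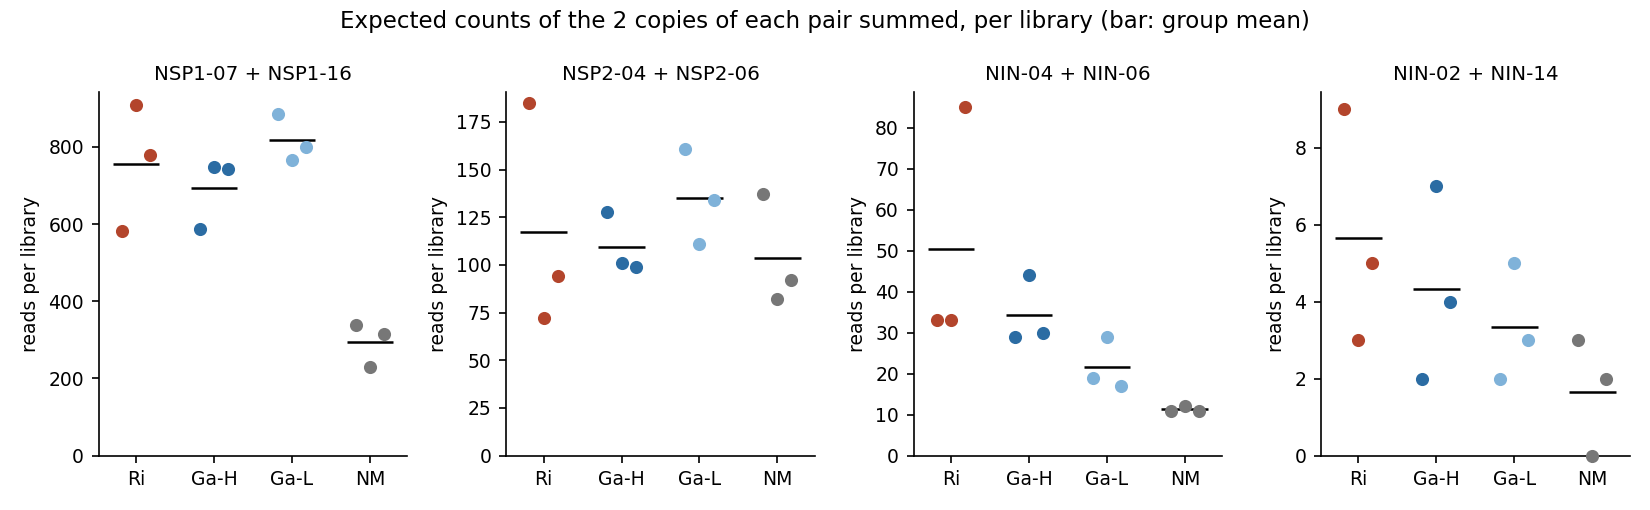
Summed expected counts of the copies of each pair, by library, in the order Ri, Ga-H, Ga-L and NM. Points are libraries and bars are group means (n = 3). The counts are drawn without scaling. As CPM (counts scaled to the library total), summed NSP1 averages 71.6, 66.0 and 79.2 in Ri, Ga-H and Ga-L, against 27 in NM. Summed NSP2 overlaps among all 4 groups.

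NSP2, the GRAS partner of NSP1, did not pass the test in any comparison. NSP2-04 had 7.39, 2.99 and 3.54 FPKM in Ri, 5.31, 3.79 and 3.61 in Ga-H, 6.80, 4.69 and 5.90 in Ga-L, and 5.59, 3.03 and 3.70 in NM libraries. The groups overlapped, and the highest library was replicate 1 in each of the 4 groups. The edgeR log2 fold change of NSP2-04 against NM was 0.16 in Ri (95% interval -0.60 to 0.91, adjusted p = 0.793), 0.01 in Ga-H (-0.74 to 0.77, adjusted p = 0.991) and 0.54 in Ga-L (-0.20 to 1.29, adjusted p = 0.307). Without Ri replicate 1, the NSP2-04 value in Ri against NM was -0.39 (adjusted p = 0.309).

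NSP2-06 was the weaker of the NSP2 copies. It had 1.44, 0.46 and 0.94 FPKM in Ri, 1.02, 1.04 and 1.28 in Ga-H, 0.93, 0.73 and 0.48 in Ga-L, and 0.58, 0.75 and 0.56 in NM libraries. The 3 Ga-H libraries lay above the 3 NM libraries and above the 3 Ga-L libraries, while the other pairs of groups overlapped. The edgeR log2 fold change of NSP2-06 against NM was 0.61 in Ri (adjusted p = 0.355), 0.82 in Ga-H (95% interval -0.09 to 1.73, adjusted p = 0.315) and 0.22 in Ga-L (adjusted p = 0.770). NSP2-04 and NSP2-06 together had 185, 72 and 94 counts in Ri, 128, 101 and 99 in Ga-H, 161, 111 and 134 in Ga-L, and 137, 82 and 92 in NM libraries.

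**Figure D3:**
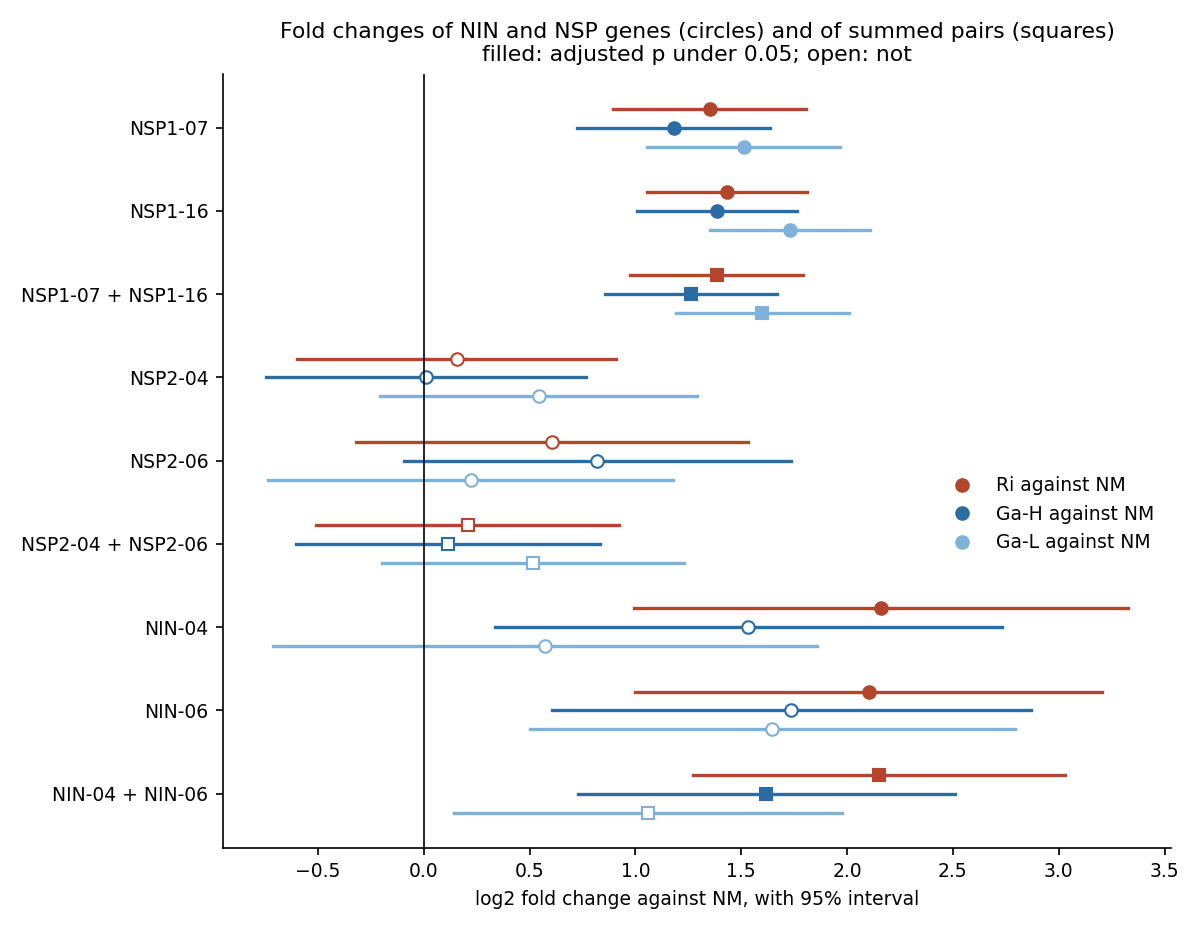
Log2 fold change against NM with its 95% interval in Ri, Ga-H and Ga-L, from edgeR's quasi-likelihood fit to the expected counts. Circles are the tested genes, and squares are the sums of NSP1, of NSP2 and of NIN-04 with NIN-06. Filled symbols have an adjusted p under 0.05 and open symbols do not. Against NM both NSP1 genes lie clear of 0 in Ri, Ga-H and Ga-L. Both NIN genes have wider intervals that clear 0 in Ri, where NIN-04 is at 2.16 and NIN-06 at 2.10. In Ga-H both also clear 0 (0.34 to 2.73 for NIN-04 and 0.61 to 2.87 for NIN-06). In Ga-L NIN-06 clears 0 (0.50 to 2.79) and NIN-04 does not (-0.71 to 1.86). The intervals are not adjusted for the number of genes tested.

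NIN transcripts were scarce, and NIN-04 and NIN-06 were higher in Ri than in NM. NIN-04 had 0.55, 0.65 and 1.90 FPKM in Ri, 0.62, 0.87 and 0.59 in Ga-H, 0.33, 0.45 and 0.23 in Ga-L, and 0.11, 0.34 and 0.21 in NM libraries. All Ri and all Ga-H libraries lay above all NM libraries and above all Ga-L libraries, whereas Ga-L overlapped NM. Ri replicate 3 was the highest NIN-04 library, at 1.90 FPKM. NIN-06 had 0.57, 0.46 and 0.81 FPKM in Ri, 0.39, 0.58 and 0.42 in Ga-H, 0.33, 0.57 and 0.35 in Ga-L, and 0.25, 0.04 and 0.15 in NM libraries. Every colonized library exceeded every NM library for NIN-06, and the 3 colonized groups overlapped each other.

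Only the Ri comparison passed the edgeR threshold for the single NIN copies. NIN-04 had a log2 fold change against NM of 2.16 in Ri (SE 0.53, adjusted p = 0.0216), 1.53 in Ga-H (SE 0.55, adjusted p = 0.129) and 0.57 in Ga-L (SE 0.59, adjusted p = 0.547). NIN-06 had 2.10 in Ri (SE 0.50, adjusted p = 0.0189), 1.74 in Ga-H (SE 0.52, adjusted p = 0.0651) and 1.65 in Ga-L (SE 0.52, adjusted p = 0.0582). The differences between Ri and the Glomus groups are tested separately further on. The Ri calls rest on few counts: without Ri replicate 3, edgeR's adjusted p was 0.0899 for NIN-04, at a log2 fold change of 1.37, and 0.0728 for NIN-06. With the compared groups fitted alone, NIN-04 did not pass in Ri (edgeR adjusted p = 0.108) and passed in Ga-H (1.52, adjusted p = 0.0431), and NIN-06 did not pass in Ri (adjusted p = 0.0889). NIN-04 was also past the threshold no more in Ri without NM replicate 1 (1.86, adjusted p = 0.0762) or NM replicate 3 (adjusted p = 0.0717), and NIN-06 without NM replicate 2 (1.65, adjusted p = 0.0579) or NM replicate 3 (adjusted p = 0.0640). Other libraries moved values the other way. Without NM replicate 1, NIN-06 was at 2.74 in Ri and passed the edgeR threshold in Ga-H (2.37, adjusted p = 0.0458) and in Ga-L (2.29, adjusted p = 0.0332). NIN-06 in Ga-L also passed without Ri replicate 1 (1.64, edgeR adjusted p = 0.0494), and NIN-04 in Ga-H passed without Ri replicate 3 (1.53, edgeR adjusted p = 0.0429).

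The NIN-04 and NIN-06 sum had 33, 33 and 85 counts in Ri, 29, 44 and 30 in Ga-H, 19, 29 and 17 in Ga-L, and 11, 12 and 11 in NM libraries. No colonized library reached down to the NM range. Group totals were 151 counts in Ri (exact Poisson 95% interval 128 to 177), 103 in Ga-H (84.1 to 125), 65 in Ga-L (50.2 to 82.8) and 34 in NM (23.5 to 47.5). These intervals cover counting error only. The sum had an edgeR log2 fold change against NM of 2.15 in Ri (95% interval 1.27 to 3.03, adjusted p = 0.00487), 1.62 in Ga-H (0.73 to 2.51, adjusted p = 0.0304) and 1.06 in Ga-L (0.14 to 1.98, adjusted p = 0.115). Ri and Ga-H overlapped: on the CPM scale Ri libraries had 3.12, 3.17 and 7.92 and Ga-H libraries 2.85, 4.11 and 2.86. The sum in Ri against Ga-H was at 0.53 (95% interval -0.26 to 1.32, edgeR adjusted p = 0.633), and at -0.036 without Ri replicate 3 (adjusted p = 0.988).

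For that NIN sum 17 alternatives were run. They were library totals alone, upper quartile scaling, DESeq2, a replicate block, compared groups alone and each of 12 libraries left out. The Ri call held in each, with adjusted p between 8.63e-05 and 0.0421, and the log2 fold change was 1.58 without Ri replicate 3. Fits with limma, with RLE factors and without the low-count filter were run for the single copies but not for the sum. The Ga-H call was lost when any single Ga-H library was left out, with log2 fold changes of 1.72, 1.42 and 1.70 and adjusted p of 0.0593, 0.123 and 0.0516. It was also lost when any single NM library was left out, with log2 fold changes of 1.59, 1.65 and 1.62 and adjusted p of 0.104, 0.0892 and 0.0912. The Ga-L comparison passed only without Ri replicate 3 (edgeR adjusted p = 0.0434).

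NIN-02 and NIN-14 were at the limit of detection. Their counts together were 9, 3 and 5 in Ri, 2, 7 and 4 in Ga-H, 2, 5 and 3 in Ga-L, and 3, 0 and 2 in NM libraries. The libraries of the 4 groups overlapped. Group totals were 17 counts in Ri (exact Poisson 95% interval 9.90 to 27.2), 13 in Ga-H (6.92 to 22.2), 10 in Ga-L (4.80 to 18.4) and 5 in NM (1.62 to 11.7). The largest single value was 0.28 FPKM, for NIN-14 in Ri replicate 1. Neither gene had 10 counts in any library, and both failed the low-count filter. In a fit without that filter, the edgeR log2 fold change in Ri against NM was 1.84 for NIN-02 (SE 1.13, adjusted p = 0.347) and 1.49 for NIN-14 (SE 1.22, adjusted p = 0.495), so a change was not detectable at this depth.

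Counted over the set, 6 of 8 genes passed the low-count filter. NIN-04 reached 10 counts in 1 NM library, NSP2-06 in 1 and NIN-06 in none. NIN-04 and NSP2-06 thus entered the test mainly through colonized libraries, and NIN-06 through colonized libraries alone. With Ga-L and NM fitted alone, 5 genes of the set passed the filter and NIN-06 did not. In Ri against NM, 4 genes were called higher by edgeR (NSP1-07, NSP1-16, NIN-04, NIN-06) and 0 lower, where 9.08% of the 36323 genes tested were called higher and 4.04% lower. In Ga-H against NM, 2 were called higher (both NSP1) and 0 lower, beside 6.25% higher and 1.87% lower of all genes tested. In Ga-L against NM, 2 were called higher (both NSP1) and 0 lower, beside 8.78% higher and 4.86% lower of all genes tested. The log2 fold changes of the 6 tested genes were above 0 in each of these comparisons. Leaving out Ri replicate 1 left 36925 genes tested and raised the shares over all genes, also where Ri was not compared. Without it edgeR called 14.5% higher and 13.4% lower in Ri, 8.32% and 3.72% in Ga-H, and 11.2% and 8.87% in Ga-L, each against NM. Members called were then 4, 2 and 3 in Ri, Ga-H and Ga-L, the added one being NIN-06 in Ga-L. Over all genes tested the median log2 fold change against NM was 0.032, 0.0029 and 0.0052 in Ri, Ga-H and Ga-L.

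A test for any difference among the 4 groups called 3 genes, beside 14.6% of all genes tested. The edgeR adjusted p was 0.00256 for NSP1-07, 0.000307 for NSP1-16 and 0.0477 for NIN-04. NIN-06 just missed, with edgeR adjusted p = 0.0603, and NSP2-04 and NSP2-06 were at 0.509 and 0.397. The NIN-04 call held in 6 of 22 alternatives, with an adjusted p of up to 0.137. These 6 include the fit with NIN-04 and NIN-06 summed. With 1 library left out it held for Ri replicate 1 and Ri replicate 2 alone, and the other 10 omissions gave an edgeR adjusted p between 0.0677 and 0.110. NIN-06 passed without Ri replicate 1 (edgeR adjusted p = 0.0450), where 31.2% of all genes were called. For the sum of NIN-04 and NIN-06 the edgeR adjusted p was 0.0177.

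Among the colonized groups no gene of the set passed the edgeR threshold. In Ri against Ga-H, edgeR called 0 of 6 genes, beside 0.0165% of all genes tested. DESeq2 called 0, beside 0.765%, and 0 had an edgeR unadjusted p under 0.05. In Ri against Ga-L, edgeR called 0, beside 4.26% of all genes, and DESeq2 called 0, beside 8.69%. An edgeR unadjusted p under 0.05 was seen for 1 gene (NIN-04). In Ga-H against Ga-L, edgeR called 0, beside 0.84% of all genes, and DESeq2 called 0, beside 6.06%. There 0 genes had an edgeR unadjusted p under 0.05. The share of all genes with an unadjusted p under 0.05 was not counted. The edgeR shares rest on single libraries. Without Ri replicate 1, edgeR called 6.24% of all genes in Ri against Ga-H, 14.9% in Ri against Ga-L and 6.26% in Ga-H against Ga-L, and 0, 2 and 0 genes of the set. With any other single library left out, the shares lay between 0% and 0.0216%, between 0.605% and 3.79%, and between 0% and 2.63% in the same order of comparisons, and no gene of the set was called.

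The nearest to a difference was NIN-04 in Ri against Ga-L, with a log2 fold change of 1.59 (SE 0.51, 95% interval 0.46 to 2.71, edgeR unadjusted p = 0.00978, adjusted p = 0.105). All 3 Ri libraries exceeded all 3 Ga-L libraries. Without Ri replicate 1 the edgeR value was 1.87 (adjusted p = 0.0247), and NSP2-04 also passed without it, at -0.93 (adjusted p = 0.0377). The NIN sum in Ri against Ga-L was at 1.09 (95% interval 0.27 to 1.91, edgeR adjusted p = 0.123). In Ga-H against Ga-L, NIN-04 was at 0.96 (edgeR adjusted p = 0.334).

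For the NSP1 genes the order of mean FPKM was Ga-L, Ri, Ga-H and NM, and only the step between NM and the next group passed the test. The Ga-H libraries lay below the Ga-L libraries in 3 of 3 for both genes, with edgeR log2 fold changes in Ga-H against Ga-L of -0.33 for NSP1-07 (95% interval -0.77 to 0.11, adjusted p = 0.382) and -0.35 for NSP1-16 (95% interval -0.71 to 0.02, adjusted p = 0.272). The sum of the NSP1 genes was at -0.34 (95% interval -0.73 to 0.06, edgeR adjusted p = 0.324). For NIN-04 and for NIN-06 the order of means was Ri, Ga-H, Ga-L and NM, and no neighbouring pair of groups in that order passed the edgeR threshold.

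Levels differed by family on the FPKM scale. Summed over its copies, NSP1 had 28.4 ± 6.41 FPKM in Ri, 26.2 ± 2.93 in Ga-H, 31.4 ± 2.20 in Ga-L and 10.7 ± 2.15 in NM (SD, n = 3 each). NSP2 had 5.59 ± 2.86, 5.35 ± 0.849 and 6.51 ± 1.16 FPKM in Ri, Ga-H and Ga-L, against 4.74 ± 1.26 in NM. The 4 NIN genes together had 1.87 ± 0.911, 1.34 ± 0.337 and 0.883 ± 0.309 FPKM in Ri, Ga-H and Ga-L, against 0.433 ± 0.0473 in NM. NSP1 was thus the most abundant family and NIN the least abundant in every group.

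The ratio of summed NSP1 to summed NSP2 FPKM was formed after the values were seen and was not tested. It was 2.47, 10.04 and 6.43 in Ri, 3.60, 5.74 and 5.73 in Ga-H, 4.38, 5.46 and 4.82 in Ga-L, and 1.98, 2.19 and 2.74 in NM libraries. The Ri replicate 1 value, 2.47, lay within the NM range, and the other 8 colonized libraries lay above it.

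**Figure D4:**
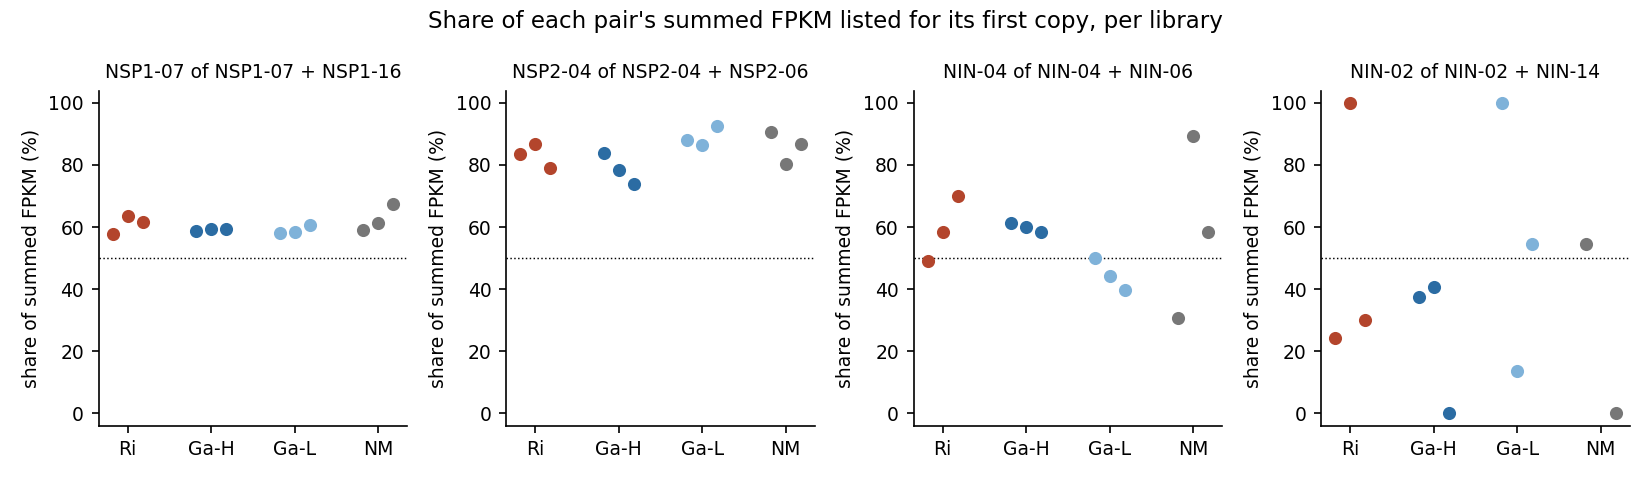
Share of the pair's summed FPKM, in percent, held by the first copy of each pair in every library, in the order Ri, Ga-H, Ga-L and NM; points are libraries. NSP1-07 holds 57.7% to 67.5% of NSP1 and NSP2-04 holds 73.8% to 92.5% of NSP2 in all 12 libraries, while NIN-04 ranges from 30.6% to 89.5% of its pair.

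Within pairs, NSP1-07 exceeded NSP1-16 in 12 of 12 libraries, with a mean log2 ratio of FPKM of 0.61 ± 0.17 (SD, pseudocount 0.1; 1.52-fold). A 2-sided exact sign-flip permutation test gave p = 0.000488, the smallest that 12 libraries allow, and 0.000977 after Benjamini-Hochberg adjustment over the 4 pairs. NSP2-04 exceeded NSP2-06 in 12 of 12 libraries, with a mean log2 ratio of 2.34 ± 0.56 (5.08-fold; the same exact p). NIN-04 exceeded NIN-06 in 7 of 12 libraries, at 0.29 ± 0.66, and the exact test gave an adjusted p of 0.164. The NIN-02 to NIN-14 log2 ratio was -0.32 ± 0.76 (exact test, adjusted p = 0.164).

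The balance of the copies did not differ detectably with the inoculum. An exact permutation test over 15400 assignments of the libraries to groups gave an adjusted p of 0.688 for NSP1, 0.461 for NSP2, 0.688 for NIN-04 and NIN-06, and 0.841 for NIN-02 and NIN-14. Of the summed NSP1 FPKM, NSP1-07 held 60.9% ± 2.90, 59.2% ± 0.352 and 59.1% ± 1.44 in Ri, Ga-H and Ga-L, against 62.5% ± 4.42 in NM (SD, n = 3 each). The way reads were shared between the copies enters all of these ratios.

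Likeness between genes is given as a description, as the Pearson correlation of log2 CPM over the 12 libraries, which all genes of a library share. Among 36322 other genes tested, NSP1-16 was the 6th most like NSP1-07 (r = 0.974), and NSP1-07 the 16th most like NSP1-16. The NIN copies were less alike: NIN-06 took place 3131 for NIN-04 (r = 0.589). NSP2-06 took place 10647 for NSP2-04 (r = 0.219). Across families, NIN-06 correlated with NSP1-07 at r = 0.825 and with NSP1-16 at r = 0.844, against 0.486 and 0.467 for NIN-04. These values depend on how reads were divided between the NIN copies. In NM replicate 2, where both NSP1 genes were lowest, NIN-04 was given 10.9 counts and NIN-06 1.1. How far that library sets the contrast was not tested, and no place among all genes was taken for these values.

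The gene most like NSP1-07 was Glyma.03G021600.Wm82.a2.v1 (r = 0.986), which the tables do not name. It had 12, 21.69 and 18.02 FPKM in Ri, 11.81, 14.36 and 12.64 in Ga-H, 18.16, 15.97 and 15.48 in Ga-L, and 3.44, 1.69 and 4.28 in NM libraries. It was chosen for its likeness over these same libraries, so its order of libraries and groups follows from the choice and is given with no test. Its log2 fold change against NM was 2.42, 2.01 and 2.44 in Ri, Ga-H and Ga-L. The genes most like NIN-04 and NSP2-04 were Glyma.17G261600.Wm82.a2.v1 (r = 0.940) and Glyma.18G025600.Wm82.a2.v1 (r = 0.917).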

How the data were processed

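Each library's deposited table holds, per the file headers, a length, an expected count and an FPKM for every gene listed. Bowtie2, HISAT and RSEM appear in the submitters' processing notes, with no version or role. Reads that match several genes are divided among them in such estimates. A gene missing from a table was set to 0.

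Deposited expected counts were rounded and tested in R 4.3.3 with edgeR 4.0.16: default low-count filter by group (36323 of 49551 genes kept), TMM scaling, robust quasi-likelihood fit to all 12 libraries with 1 mean per group and no replicate block. P-values were Benjamini-Hochberg adjusted over all genes tested, with a threshold of 0.05. Intervals of fold changes use the residual plus prior degrees of freedom. The fit was tested on simulated counts. Copies of a pair were compared on log2(FPKM + 0.1).

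Alternatives used limma 3.58.1, DESeq2 1.42.0, other scalings, filters and pseudocounts, a replicate block and single libraries left out. A floor of 3 counts per library was set for reference only. Values below it were kept, such as 1.1 counts for NIN-06 in NM replicate 2. Text names the 8 genes and, for the most abundant gene of each family, the gene most like it. Members and lists were chosen with earlier results of these data known. Lists of other symbiosis genes and of nodule, shoot and root markers were not used, because 0 of 49551 IDs matched the RefSeq table of assembly Glycine_max_v4.0.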

Additional observations from a re-analysis of the deposited data

How the results depend on the processing

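Against NM, both NSP1 genes kept their direction and passed the threshold in each of 23 alternatives in Ri, Ga-H and Ga-L, with adjusted p up to 0.0320. For each single gene the 23 include the fit with the copies of its pair summed. In Ri against NM the 4 genes called became 2 with limma on log2(FPKM + 1), 2 with log2(FPKM + 0.1) and 2 when the compared groups were fitted alone, where the Ga-H count was 3 in place of 2, and between 2 and 4 with 1 library left out. Of all genes tested, the main fit called 13.1% in Ri and 8.12% in Ga-H against NM. With the compared groups alone these shares were 5.65% and 11.8%. With limma the share in Ri was 12.9% on log2(FPKM + 1) and 12.6% on log2(FPKM + 0.1). Omitting 1 library moved the edgeR share in Ri to between 7.46% (NM replicate 2 omitted) and 27.9% (Ri replicate 1 omitted). Members called fell to 2 at shares of 8.08% (Ri replicate 3 omitted) and 8.09% (NM replicate 3 omitted). They stayed at 4 at a share of 7.9% (Ri replicate 2 omitted). In Ri against Ga-L, between 0 and 2 genes were called with 1 library left out. The cause was not tested. NIN-04 held its Ri call in 16 of 23 alternatives and NIN-06 in 17 of 23. Both counts include the fit of the summed pair, which passed (edgeR adjusted p = 0.00487) and is not a test of either copy alone. DESeq2 also called NIN-06 in Ga-H (adjusted p = 0.0389) and in Ga-L (0.0384). It called more genes overall than the main edgeR fit did. For Ga-H against NM its share of all genes was 10.7%, beside 8.12% by edgeR. For Ga-L against NM it was 17.7%, beside 13.6% by edgeR.

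Several log2 fold changes that were not called changed sign. NSP2-04 in Ga-H against NM was -0.00018 with RLE factors, -0.035 with upper quartile scaling and -0.0033 with the compared groups alone. Summed NSP2, most of which is NSP2-04, was at 0.093 in Ri against Ga-H, -0.31 in Ri against Ga-L and -0.40 in Ga-H against Ga-L. These signs are those of NSP2-04 (0.14, -0.39 and -0.53) and opposite to those of NSP2-06 (-0.21, 0.38 and 0.60). The sum is thus no separate estimate of NSP2-06. With 1 library left out, the ranges against NM were -0.39 to 0.43 (NSP2-04 in Ri), -0.18 to 0.29 (NSP2-04 in Ga-H), -0.0048 to 0.44 (NSP2-06 in Ga-L), -0.33 to 0.45 (summed NSP2 in Ri) and -0.036 to 0.35 (summed NSP2 in Ga-H). In Ri against Ga-H they were -0.16 to 0.91 (NIN-04), -0.39 to 0.38 (NSP2-04), -0.69 to 0.12 (NSP2-06), -0.033 to 0.34 (NSP1-07) and -0.067 to 0.14 (NSP1-16). In Ri against Ga-L they were -0.096 to 0.72 (NSP2-06) and -0.37 to 0.00051 (NSP1-07), and in Ga-H against Ga-L, -0.11 to 0.39 (NIN-06).

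With the replicate number as a block, 4, 2 and 2 genes were called in Ri, Ga-H and Ga-L against NM and 2 in the test among all groups, where 3 were called without it; no other count of calls among the 8 genes changed. Of all genes tested, 11.8%, 7.31% and 12.7% were called with the block in Ri, Ga-H and Ga-L against NM. Without it the shares were 13.1%, 8.12% and 13.6%. In the test among all groups the share was 11.8% with the block and 14.6% without it. The labels do not tie equal numbers together: 6 of 18 same-number correlations exceeded 0.1, and 5 of 12 libraries were most like their own number. With few NIN counts, depth limits what can be seen of NIN-02 and NIN-14.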

Other observations

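NIN-04 is listed with 2 transcripts, and its listed length, which weights them, was above the shortest value of 2905 bases in 3 of 12 libraries: Ri replicate 2 (2967.46), Ri replicate 3 (3000.93) and Ga-L replicate 3 (3077). The other 7 genes were listed with 1 transcript each.

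The genes with the 5 nearest IDs on each side of each NSP1 gene were looked at after the values were seen. Of 8 tested around NSP1-07, 2 were called higher and 1 lower in Ri, 1 higher and 0 lower in Ga-H, and 2 higher and 1 lower in Ga-L, each against NM. Their median log2 fold change was -0.28, -0.047 and 0.17 in Ri, Ga-H and Ga-L. Of 6 tested around NSP1-16, 0, 0 and 1 were called higher and 0 lower in Ri, Ga-H and Ga-L. Over all genes tested, 9.08%, 6.25% and 8.78% were called higher and 4.04%, 1.87% and 4.86% lower in Ri, Ga-H and Ga-L.

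The biological coefficient of variation that edgeR estimated was 14.8% for NSP1-16, 18.1% for NSP1-07, 23.2% for NIN-06, 25.6% for NSP2-06, 28.8% for NSP2-04 and 39.1% for NIN-04. The common value over all genes tested, 22.4%, takes no account of abundance. The edgeR trend at the abundance of each gene was 18.7%, 18.5%, 33.8%, 33.3%, 22.1% and 32.3% in the same order. Only NSP2-04 and NIN-04 lay above their trend.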
